A study of Mus musculus with 30 samples.

Results

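Ryr1, Jph1, Jph2, Stac3, Trdn, Jsrp1, Sypl2, Srl, Sln and Pln are 10 genes of the machinery that releases calcium in skeletal muscle fibers and pumps it back. Of the first 8, all but Srl encode proteins of the triad, the junction of the sarcoplasmic reticulum with the transverse tubule. Srl encodes a calcium-binding protein inside the reticulum. These 8 are called junction genes here for short, while Sln and Pln encode small inhibitors of the calcium pump. All 10 were chosen by symbol for their function. Sln and Pln were also chosen because their levels vary between mice, and the first 8 as stable genes to set beside them. All 10 were found, each on a single row, among the 56951 gene symbols of the tables, and all 10 were among the 12030 genes with enough reads to be tested. The libraries came from gastrocnemius muscle, collected together with the plantaris, of wild-type C57BL/6J male mice that each lived in a single cage with a running wheel. All mice were entrained to a cycle of 12 h of light and 12 h of dark for 2 weeks, spent 2 weeks in constant darkness, and entered the final schedule at 14 weeks of age. On that schedule the 14 mice of the LD group kept the same light-dark cycle for 64 weeks, and the light period of the 16 mice of the ADV group was advanced by 8 h every 4 days, a model of chronic jet lag. There was 1 library per mouse, and the muscle was taken in the light phase over several hours, when both groups were on the same light-dark cycle.

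In a skeletal muscle fiber, an action potential runs down the transverse tubule and moves a voltage sensor, which opens the ryanodine receptor in the facing membrane of the sarcoplasmic reticulum. Calcium then leaves the reticulum and the fiber contracts, and the SERCA pump returns the calcium to the store. Junctophilins hold both membranes together, triadin and JP-45 (the product of Jsrp1) link the release channel to its partners, and sarcolipin (Sln) and phospholamban (Pln) slow the pump by binding to it in the membrane. In adult rodents phospholamban is known from heart and slow-twitch muscle, and sarcolipin from the atria and from slow or stressed muscle, whereas the gastrocnemius consists mostly of fast fibers.

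Sln and Pln are short reading frames on much longer transcripts. Their coding sequences are shown because each lies in a single exon and most of the counted row lies outside it. The Sln coding sequence takes up 96 bases of a row of 1315 bases, and that of Pln 159 bases of a row of 2331 bases. Below are both coding sequences from the mouse genome GRCm39, the build of the tables, with start and stop codons in capitals, Sln on the plus strand of chr9:53760757-53760852 and Pln on the plus strand of chr10:53219960-53220118.
Sln: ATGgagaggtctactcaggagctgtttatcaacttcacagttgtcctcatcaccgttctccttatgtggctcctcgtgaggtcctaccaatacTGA
Pln: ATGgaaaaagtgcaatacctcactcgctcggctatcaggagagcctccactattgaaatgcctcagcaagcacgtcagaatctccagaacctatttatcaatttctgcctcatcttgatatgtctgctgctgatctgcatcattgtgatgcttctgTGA
The Sln row (ENSMUST00000048485.7) ran over 2 exons from 53757448 to 53761844 on chromosome 9, and the Pln row (ENSMUST00000046221.8) over 2 exons from 53213789 to 53222083 on chromosome 10. Of the exon bases of the Pln row, 64.8% are shared with genes on the opposite strand. How strand was handled in counting is not given in the sources used here. The libraries were made with a stranded kit. The Gm47644 row, which shares 1372 exon bases with Pln, held a mean of 1.02 reads against 55.6 for Pln, and Cep85l, which shares 141, held 1026.

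Trdn and Jsrp1 show how far the junction genes differ in base composition, which the difference between groups is read against below. The first 120 bases of the longest coding exon counted in each row are given with G and C in capitals, Trdn from the plus strand of chr10:33015070-33015189 and Jsrp1 from the minus strand of chr10:80644754-80644873. G and C make up 45.8% of the Trdn stretch and 64.2% of the Jsrp1 stretch.
Trdn: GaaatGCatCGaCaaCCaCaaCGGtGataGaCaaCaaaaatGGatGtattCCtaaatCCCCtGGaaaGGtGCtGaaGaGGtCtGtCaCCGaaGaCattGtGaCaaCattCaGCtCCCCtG
Jsrp1: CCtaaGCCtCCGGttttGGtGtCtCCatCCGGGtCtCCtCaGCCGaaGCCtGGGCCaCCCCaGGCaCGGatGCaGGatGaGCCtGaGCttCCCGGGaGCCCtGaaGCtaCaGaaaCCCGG
Over the whole row the GC content was 41.3% for Trdn, 46.7% for Jph1, 48.8% for Srl, 52.3% for Sypl2, 54.9% for Stac3, 57.8% for Ryr1, 62.1% for Jph2 and 64.6% for Jsrp1. It was 47.0% for Sln and 38.6% for Pln. The Trdn row (ENSMUST00000219931.2, chromosome 10, 32959557 to 33109988) covered 1071 bases in 9 exons, a part of this large gene, so exons outside it did not contribute to its level. The Ryr1 row (ENSMUST00000214374.2, chromosome 7, 28702769 to 28824440, minus strand) covered 15083 bases in 109 exons. On the plus strand, Stac3 (ENSMUST00000160019.8) spans 127337555 to 127344692 of chromosome 10. The other rows are on the minus strand: Jph1 (ENSMUST00000038382.5) lies on chromosome 1 from 17065162 to 17168113, Jph2 (ENSMUST00000109425.3) on chromosome 2 from 163178162 to 163239913, Sypl2 (ENSMUST00000141387.4) on chromosome 3 from 108118788 to 108133964, Jsrp1 (ENSMUST00000181039.8) on chromosome 10 from 80644332 to 80649326 and Srl (ENSMUST00000090500.10) on chromosome 16 from 4298080 to 4340939.

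Between 18875468 and 28512674 reads per library fell on exons. FPKM, the number of fragments scaled to exon length and library size, was used for levels, because it allows genes of different length to be compared. Differences between groups were tested on the rounded read counts with edgeR's quasi-likelihood test in 1 fit over all genes tested. Of the 12030 genes, 1300 (10.8%) had an FDR under 0.05, and 243 (2.02%) were called, with a fold change over 1.3 as well. Of the 10 genes described here, 1 had an FDR under 0.05 and 0 were called (DESeq2 also called 0). An unadjusted p under 0.05 was found for 4 of the 10 and for 29.9% of all genes. Their median log2 fold change was -0.091, and that of all genes tested 0.0035. The labels name no batch, and because this is bulk tissue, fewer fibers of a type and less RNA per fiber cannot be told apart.

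**Figure D1:**
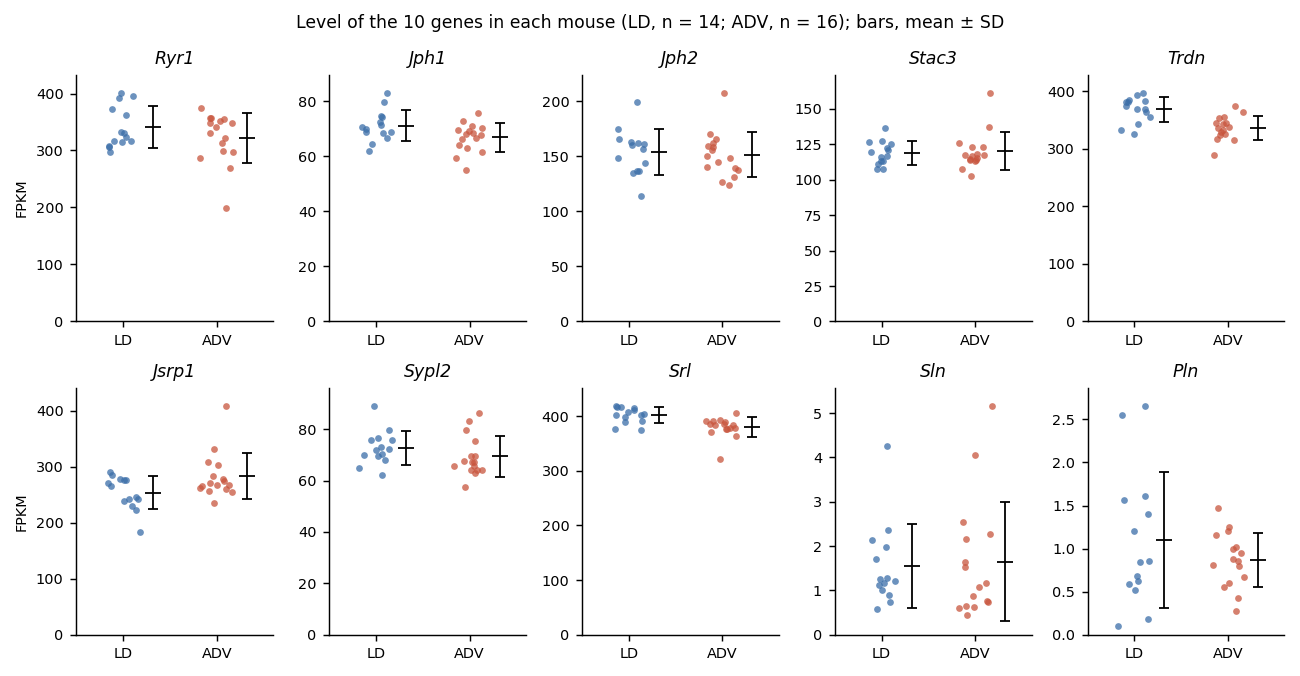
FPKM of the 10 genes in every mouse, LD in blue (n = 14) and ADV in red (n = 16), with the mean ± SD beside the points and each axis starting at 0. The junction genes lie in narrow bands that overlap between the groups, while Sln runs from 0.45 to 5.16 and Pln from 0.107 to 2.65 FPKM.

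Ryr1 encodes the calcium release channel of the triad. Its level lay between 297 and 401 FPKM among the LD animals (median 327) and between 198 and 374 among the ADV animals (median 336), and the means were 341 ± 36.5 (SD, n = 14) and 322 ± 44.4 FPKM (n = 16). The groups overlapped over most of their range, with 9 of 16 ADV mice above the LD median, and the lowest, ADV mouse 34, was well below the next at 269.5 FPKM. The log2 fold change was -0.10 with a standard error of 0.07 (FDR 0.374, edgeR), within the spread between mice. Stac3, an adaptor that the voltage sensor needs in order to reach the triad and open the channel, was at 119 ± 8.29 FPKM (LD) and 120 ± 13.4 FPKM (ADV). Its log2 fold change was -0.00037 (95% interval -0.097 to 0.097, edgeR FDR 0.997). Stac3 ranged from 107 to 137 FPKM in LD mice, and 1 of the 16 ADV mice lay below and 2 above that range, the highest again being ADV mouse 34 at 161 FPKM.

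Trdn, the triadin gene, had an FDR under 0.05. It lay between 326 and 398 FPKM among the LD animals (median 372) and between 289 and 374 among the ADV animals (median 338). Of the 16 ADV mice 15 lay below the LD median and 4 below the lowest LD mouse, and 7 of the 14 LD mice lay above every ADV mouse. The mean was 369 ± 21.8 FPKM (LD) and 337 ± 20.8 FPKM (ADV), and edgeR's log2 fold change was -0.14 (standard error 0.04, FDR 0.0240), a level lower by 9.51% with a 95% interval of the fold from 0.854 to 0.959. Over all genes, 612 (5.09%) were lower in ADV mice with an FDR under 0.05 and 688 (5.72%) higher. Each of the 30 fits that left out 1 library kept Trdn under an FDR of 0.05, with FDRs from 0.0154 to 0.0417. The value depended on how base composition was treated, and with the GC content trend of each library removed, its log2 fold change was 0.014 (FDR 0.927). In other fits the FDR of Trdn was over 0.05 while its log2 fold change stayed negative: -0.14 without the filter on low values (FDR 0.0634), -0.12 in the 28 libraries with shared label numbers (0.0540), and, with a covariate, -0.12 for the clock gene score (0.477), -0.13 for the exon share of the library (0.203) and -0.096 for the slow fiber score (0.138). The exon share, the percentage of a library's reads on exons, itself differed by group, at 91.17 ± 0.119% in LD and 91.53 ± 0.373% in ADV libraries, with 12 of 16 ADV libraries above the highest LD library.

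Jsrp1 went the other way without passing the test. It lay between 184 and 291 FPKM among the LD animals (median 257) and between 235 and 408 among the ADV animals (median 270), with 14 of 16 ADV mice above the LD median and 4 above the highest LD mouse. The means were 254 ± 29.3 and 283 ± 40.7 FPKM, and the log2 fold change was 0.14 with a standard error of 0.07 (FDR 0.155, edgeR). The highest value belonged to ADV mouse 34, and the next highest ADV mouse was at 332 FPKM.

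The junctophilins anchor the reticulum to the tubule membrane. Jph1 was at 71.0 ± 5.58 FPKM (LD) and 66.8 ± 5.15 FPKM (ADV), with 12 of 16 ADV mice below the LD median and a log2 fold change of -0.11 with a standard error of 0.05 (FDR 0.132, edgeR). Jph2 was at 154 ± 20.7 and 152 ± 20.4 FPKM, and its ranges, 114 to 199 FPKM in LD mice and 124 to 208 FPKM in ADV mice, lay over each other. Its log2 fold change was -0.041 with a standard error of 0.068 (FDR 0.713, edgeR). Neither junctophilin passed the test.

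Srl encodes sarcalumenin, a calcium-binding protein inside the reticulum, and Sypl2 encodes mitsugumin 29, a membrane protein of the triad. Srl was the most abundant of the 10 genes per kilobase, at 402 ± 14.1 FPKM (LD) and 380 ± 18.4 FPKM (ADV). It lay between 376 and 418 FPKM among the LD animals and between 321 and 406 among the ADV animals, 15 of 16 ADV mice lay below the LD median, and 6 LD mice lay above every ADV mouse. Its log2 fold change of -0.096 (standard error 0.036) missed the threshold in edgeR (FDR 0.0719) and passed it in DESeq2 (FDR 0.0349), where 2 of the 10 genes, Trdn and Srl, and 13.9% of all genes did. Sypl2 was at 72.8 ± 6.60 FPKM (LD) and 69.4 ± 7.84 FPKM (ADV), with a log2 fold change of -0.086 with a standard error of 0.052 (FDR 0.261, edgeR).

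Libraries differed in how expression depended on GC content. The slope of a library's log2 deviation on GC content was between -0.0167 and 0.00418 per percent in LD mice (median -0.00731) and between -0.00763 and 0.0324 in ADV mice (median 0.00281), so GC-rich genes read higher relative to AT-rich genes in the ADV libraries at the median. The highest slope belonged to ADV mouse 34, which also had the highest Jph2, Stac3 and Jsrp1 and the lowest Ryr1 and Jph1 of all mice. With the trend of each library removed, edgeR called 153 genes in place of 243, and the order of the junction genes changed. The log2 fold change of Jsrp1, the most GC-rich, was then 0.0092 (FDR 0.936) and that of Trdn, the least, 0.014. Jph2 moved from -0.041 to -0.18 (standard error 0.052, FDR 0.0344) and was then the 1 gene of the 10 with an FDR under 0.05, as were 584 of all genes (4.85%), and Ryr1 moved from -0.098 to -0.18 (FDR 0.158). Whether the GC trend arose in the muscle or in library preparation was not tested.

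**Figure D2:**
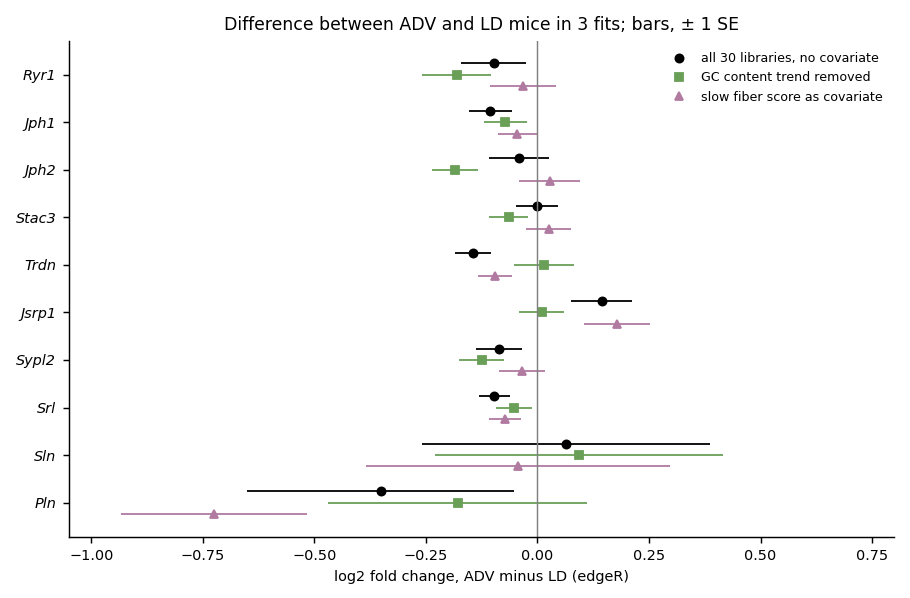
Log2 fold change, ADV minus LD, of the 10 genes in 3 edgeR fits, with ± 1 standard error. Trdn and Jsrp1 lie near 0 once the GC content trend is removed, Jph2 then lies at -0.18, and Pln lies at -0.73 with the slow fiber score as a covariate.

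Sln and Pln were present at a small share of the level of the junction genes. Sln averaged 51.4 reads per library and Pln 55.6 reads, and the mean level of Pln was 0.978 FPKM, while the least abundant junction gene, Jph1, averaged 68.8 FPKM. Myoregulin (Mrln), a related inhibitor of the pump in adult skeletal muscle, stood at 76.1 FPKM. The Mrln level exceeded that of Sln by a median of 61.0-fold over the 30 mice (13.9-fold to 176-fold) and that of Pln by a median of 94.1-fold (22.3-fold to 694-fold), so Mrln was the most abundant of the 3 inhibitors in every mouse. Sln and Pln did not keep a fixed order, with a ratio of Sln to Pln between 0.555 and 10.9 and a median of 1.26.

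Sln lay between 0.574 and 4.27 FPKM among the LD animals (median 1.23) and between 0.45 and 5.16 among the ADV animals (median 1.12). In both groups a few mice lay far above the median. LD mouse 32 held the highest LD value and the next was 2.36 FPKM, while ADV mice 27 and 32 held the highest ADV values, 5.16 and 4.06 FPKM. The groups overlapped almost fully, with 7 of 16 ADV mice above the LD median. The means were 1.55 ± 0.942 and 1.64 ± 1.34 FPKM, and the log2 fold change was 0.064 with a standard error of 0.32 (FDR 0.917, edgeR). Its 95% interval, from -0.60 to 0.73, is wider than that of any junction gene.

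Pln lay between 0.107 and 2.65 FPKM among the LD animals (median 0.851) and between 0.28 and 1.47 among the ADV animals (median 0.869). The LD mice reached further at both ends, since 4 of 14 lay above every ADV mouse and 2, mice 33 and 23 at 0.107 and 0.186 FPKM, below every ADV mouse. The means were 1.10 ± 0.788 and 0.870 ± 0.316 FPKM, with a log2 fold change of -0.35 with a standard error of 0.30 (FDR 0.445, edgeR) and 9 of 16 ADV mice above the LD median. The difference was within the spread between mice, and the medians and means of the groups were in opposite order. The counts behind the lowest values were small, 7 reads in LD mouse 33 against a median of 53.3 reads in LD mice.

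The spread between mice separated the regulators from the junction genes, which is part of how both were chosen and is given without a test. The biological coefficient of variation, which edgeR estimates beyond counting error, was 58.8% for Sln and 55.9% for Pln, above those of 99.5% and 99.3% of the genes tested. Genes with few reads vary more in general. At their read counts, the values of Sln and Pln were 2.79 and 2.68 times the trend of all genes. The part of low counts in this spread was not tested. Counting error alone would give a coefficient of variation of 13.4% for Pln and 14% for Sln. The junction genes lay between 7.80% for Srl, the 7.80 percentile of all genes, and 14.4% for Ryr1, the 63.2 percentile, all below the trend at their abundance, with a median of 10.2%. Raw FPKM also set the regulators apart from the junction genes, with coefficients of variation of 3.50% to 13.4% in LD mice and 4.84% to 14.4% in ADV mice for the junction genes, 60.8% and 81.6% for Sln, and 71.6% and 36.3% for Pln.

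**Figure D3:**
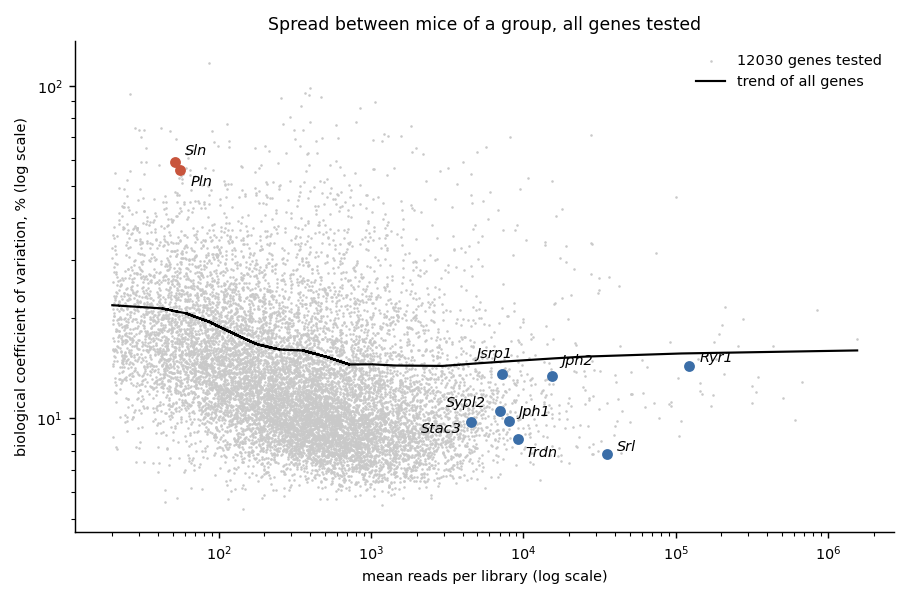
Biological coefficient of variation against mean reads per library for the 12030 genes tested (grey), both on log scales, with the trend of all genes (line), the junction genes in blue and Sln and Pln in red. Sln and Pln lie far above the trend, and the 8 junction genes lie below it.

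The test of the spread, in limma on each mouse's distance from its group median of log2 CPM (counts scaled to library size), asked whether the mice of one group varied more than those of the other. For Pln the SD on the log2 scale was 1.21 in LD mice and 0.59 in ADV mice, and the mean distance was smaller in ADV mice, with a difference of -0.49 (standard error 0.22, limma unadjusted p = 0.0332, FDR 0.801). For Sln the SDs were 0.71 and 0.97, and the mean distance was larger in ADV mice by 0.29 (standard error 0.19, limma FDR 0.812). Of the 10 genes 0 had an FDR under 0.05 in limma and 1, Pln, an unadjusted p under 0.05. Over all genes, limma gave an FDR under 0.05 for 1 of 12030 (0.00831%) and an unadjusted p under 0.05 for 723 (6.01%). Without LD mice 23 and 33, the Pln difference was -0.25 (limma unadjusted p = 0.104).

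Pln varied with the genes of slow fibers. The slow fiber score was the mean log2 CPM, centred per gene, of 12 genes of slow fibers, such as Myl3 and Myl2, the light chains of slow myosin, and none of them is among the 10 genes or their pathway list. After subtraction of the group means, Pln correlated with this score with a Pearson r of 0.789 and a Spearman rho of 0.732 over the 30 mice (permutation p = 1e-05 for each, the smallest that the permutations can give). The adjusted p over the 13 relations examined was 0.00013 for each. The mice farthest from the median of the score were LD mice 23 and 33, also the lowest in Pln, and without them r was 0.671 (adjusted permutation p = 0.00117). Within the LD group alone r was 0.863 (n = 14, adjusted p = 0.00221 by permutation), and within the ADV group 0.571 (n = 16, adjusted p = 0.160). Without the 2 farthest LD mice, r in the LD group was 0.729 and no longer passed (adjusted permutation p = 0.0584). Pln also correlated with the score of 9 fast fiber genes (Tnnt3 and Myh4 the most abundant), with r = -0.533 and rho = -0.598 (adjusted permutation p of 0.0118 and 0.00351). For this score r was -0.744 in LD mice and -0.295 in ADV mice (adjusted p of 0.0136 and 0.561 by permutation). In LD mice without the 2 farthest on the fast fiber score, r was -0.711 (adjusted permutation p = 0.0584).

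The slow fiber genes themselves spread widely. Their summed level lay between 87.0 and 1415 FPKM among the LD animals and between 482 and 3089 among the ADV animals. All 12 were above 0, and 1 of the 12, Csrp3, was called higher in ADV mice, where 2.02% of all genes were called. Myh7, the slow myosin heavy chain, was at 233 FPKM in ADV mouse 24. The gastrocnemius holds a slow region, and how much of it each sample contained is not recorded in the labels. In an edgeR fit of group and score over all genes, a test added after the data were seen, Pln rose by 0.83 on the log2 scale per log2 unit of the score (standard error 0.13, FDR 6.78e-05), with slopes from 0.74 to 0.91 when each library was left out. Over all genes, 989 (8.22%) had an FDR under 0.05, of which 728 (6.05%) rose and 261 (2.17%) fell with the score, and of the 10 genes 3 did, 1 rising and 2 falling. Of the junction genes, Jph1 (slope -0.082, FDR 0.0201) and Trdn (slope -0.065, FDR 0.0402) fell with the score. Neither had an FDR under 0.05 without ADV mouse 24 (slopes -0.074 and -0.052, FDRs 0.0541 and 0.122). Nor had they without LD mice 23 and 33 (slopes -0.103 and -0.090, FDRs 0.0527 and 0.0731). With 1 library left out, Jph1 had an FDR under 0.05 in 28 of 30 fits and Trdn in 22. Sln had a slope of 0.19 (standard error 0.18, FDR 0.615). The Pln slope without ADV mouse 24 was 0.91, and without LD mice 23 and 33 it was 0.69 (FDR 0.0131).

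With the slow fiber score as a covariate, Pln was lower in ADV mice by a log2 fold change of -0.73 with a standard error of 0.21 (FDR 0.0488, edgeR), and it was then called, 1 of the 109 genes (0.906%) called in that fit, where 380 (3.16%) had an FDR under 0.05 at any fold. The call rested on single libraries: of 30 fits that each left out 1 library, 9 gave an FDR under 0.05 and the others up to 0.108, while the log2 fold change stayed between -0.84 and -0.61. In the same fit Trdn no longer had an FDR under 0.05 (log2 fold change -0.096). The score itself differed by group, with a mean of -0.393 (SD 1.14) in LD mice and 0.344 (SD 0.666) in ADV mice. The median log2 fold change of the 12 slow fiber genes was 0.52. Score and group were thus not independent, and the Pln value of this fit depends on how the score was adjusted for.

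No relation of Sln with the slow fiber score was detected (r = 0.136, rho = 0.139, adjusted permutation p of 0.686 and 0.750), nor with Pln (r = 0.154, rho = 0.175, adjusted p of 0.677 and 0.661 by permutation). It correlated best with a score of 6 genes known to rise in denervated muscle, of which Gadd45a and Hdac4 were the most abundant, with r = 0.564 (adjusted permutation p = 0.00728) and rho = 0.453 (adjusted p = 0.0551). ADV mice 27 and 32, with the highest scores and the highest Sln of the ADV group, were the farthest from the median, and without them r was 0.328 (adjusted p = 0.291 by permutation), so the call rested on these mice. Within the LD group, which holds neither, r was 0.522 (adjusted permutation p = 0.175), and within the ADV group 0.584 (adjusted permutation p = 0.160). Against the immediate early genes (Nr4a1 and Atf3 the most abundant), Sln gave r = -0.433 and rho = -0.380 (adjusted permutation p of 0.0570 and 0.129), and without the farthest mice, ADV mice 25 and 29, r was -0.288. With the fast fiber score r was -0.357 and rho -0.285 (adjusted p of 0.137 and 0.276 by permutation). Against the clock gene score, r was 0.0105 for Sln and -0.00803 for Pln (rho -0.0327 and -0.0412), and against the log2 library total -0.000101 and -0.0651 (rho -0.0612 and -0.0291), with an adjusted permutation p of 0.880 for each rho. Pln gave r = 0.163 and rho = 0.119 with the immediate early score (adjusted permutation p of 0.677 and 0.768), and r = 0.323 and rho = 0.349 with the denervation score (adjusted p of 0.176 and 0.154 by permutation).

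**Figure D4:**
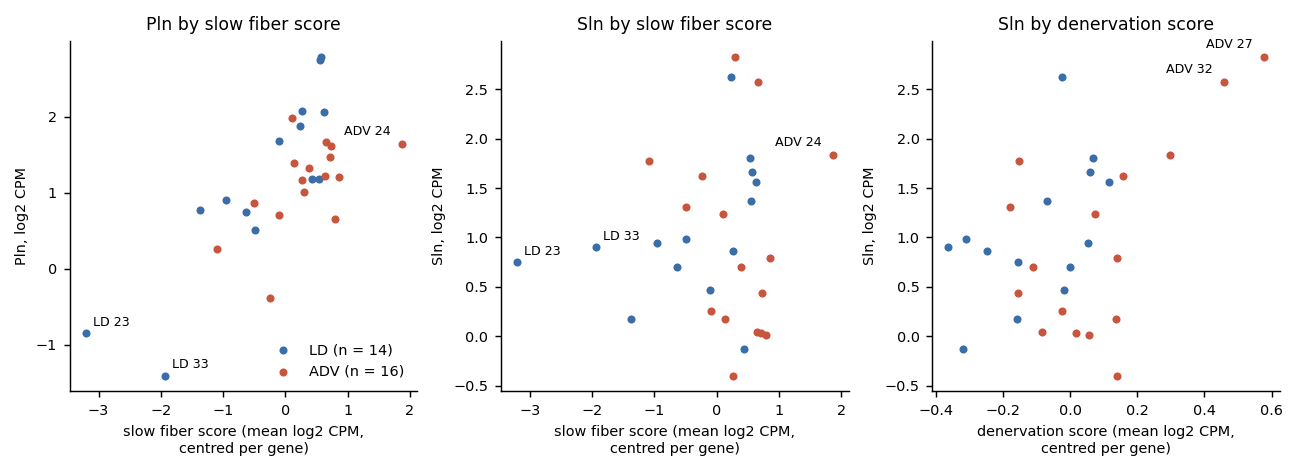
Log2 CPM of Pln and Sln against the slow fiber score, and of Sln against the denervation score, for LD mice (blue) and ADV mice (red). For Pln and the slow fiber score r was 0.863 in LD mice, with mice 23 and 33 at the low end, and 0.571 in ADV mice, where it did not pass the test, and for Sln and the denervation score r was 0.564 over all mice and 0.328 without ADV mice 27 and 32.

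Among 9587 genes with a mean over 100 reads, those whose group-centred log2 CPM was most like that of Pln over the 30 mice were Fzd9 (r = 0.882), Pcp4l1 (0.869), Gm5532 (0.867), Cyfip2 (0.853) and Acad12 (0.852). The least like were Spon1 (r = -0.804), Ecm1 (-0.795) and C3 (-0.782). For Sln the closest genes were Acaca (r = 0.709), which encodes an enzyme of fatty acid synthesis, Aif1l (0.709), Uchl1 (0.682), Thrsp (0.644), a regulator of lipid synthesis, and Cnst (0.634), and among the least like were Foxo4 (r = -0.643) and Rpl22 (-0.63). These correlations are descriptions picked from the extremes of many genes.

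The levels of the junction genes were compared with each other across mice. In the LD group all 28 pairs of the 8 genes correlated positively over the 14 mice, with r from 0.269 to 0.826 and a median of 0.654. In the ADV group r ran from -0.746 to 0.802 over the 16 mice with a median of 0.147, and 11 of the 28 pairs were negative. The negative pairs joined Ryr1 or Jph1 to Jph2, Stac3, Jsrp1 and Sypl2, or Trdn to Jph2, Stac3 and Sypl2. For Ryr1 and Jph2, r was 0.701 in LD mice and -0.746 in ADV mice, and for Jph2 and Sypl2 it was 0.803 and 0.757. The difference between the groups in these correlations was not tested. Pairs of other genes were not examined, so the values do not show whether such correlation is particular to these genes.

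Over both groups with the group means subtracted, 11 of the 28 pairs had an adjusted permutation p under 0.05 for r. The share among pairs of all genes was not computed. The highest was Jph2 with Jsrp1, with r = 0.782 and rho = 0.586 (adjusted p of 0.00014 and 0.00493 by permutation), and r = 0.597 without the farthest mice. The lowest was Ryr1 with Stac3, with r = -0.355 and rho = 0.00512 (adjusted permutation p of 0.131 and 0.979). ADV mouse 34 decided the sign of the latter, which was 0.151 without that mouse, and without it 0 of the 28 pooled pairs were negative. Within the ADV group 10 of 28 pairs were negative without ADV mouse 34, of which 8 were among the 11 negative with it, and Ryr1 with Jph2 was at -0.439. Jph1 with Jph2, Jsrp1 and Sypl2 turned positive, and Srl with Jph2 and Stac3 turned negative, at -0.0713 and -0.0476. The GC slope of the libraries moved with several of these genes: it correlated with Ryr1 with an r of 0.804 in LD mice and -0.625 in ADV mice, and with Jsrp1 with an r of 0.806 and 0.773. With the GC content trend of each library removed, 0 of 28 pairs were negative in LD mice (median r 0.592) and 8 in ADV mice (median r 0.458), of which 6 were among the 11.

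**Figure D5:**
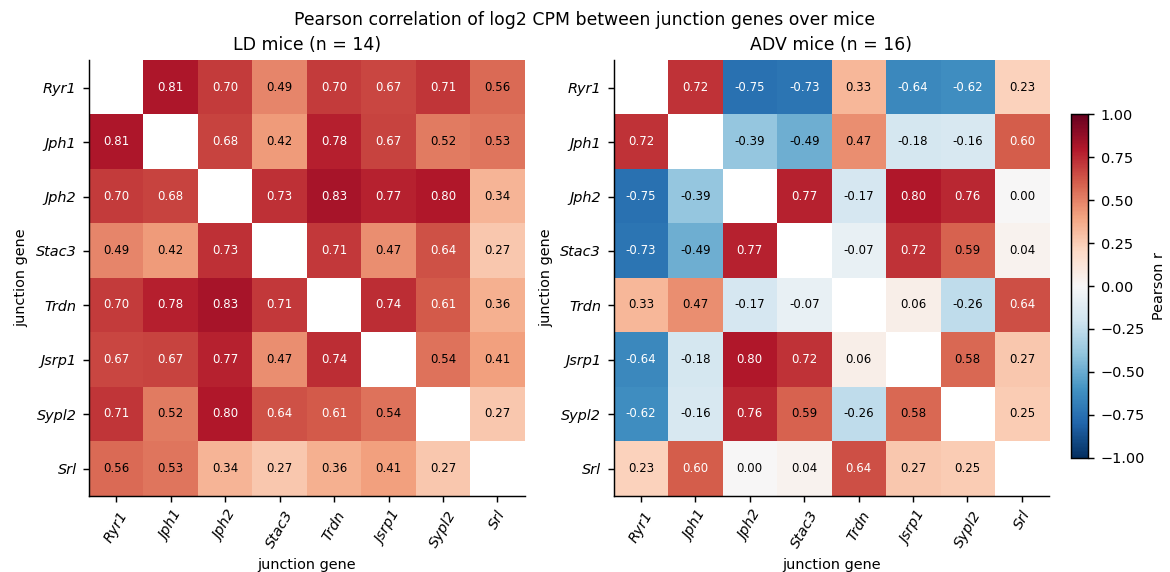
Pearson correlation of log2 CPM for each pair of the 8 junction genes over the 14 LD mice (left) and the 16 ADV mice (right), from -1 in blue to 1 in red. All pairs are positive in LD mice, and in ADV mice Ryr1 is negative against Jph2 (-0.746), Stac3 (-0.728), Jsrp1 (-0.644) and Sypl2 (-0.625).

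The other genes of calcium release and uptake were described from a list by role. Of its 52 symbols, 50 were found, all but Arln and Sarln, which may be listed elsewhere under another symbol. Of the 46 that were tested, 1 was higher and 0 lower in ADV mice at an FDR under 0.05 (against 5.72% and 5.09% of all genes), and 0 were called. The median log2 fold change was -0.027. Ehd1, which encodes a protein of membrane remodelling, was the 1 that passed, at 10.4 ± 0.798 FPKM (LD) and 11.9 ± 1.47 FPKM (ADV) (log2 fold change 0.18, edgeR FDR 0.0308). The voltage sensor subunits Cacna1s and Cacng1 had log2 fold changes of -0.079 and -0.040, the calmodulin gene Calm3 -0.061, the store proteins Casq1 and Hrc -0.15 and -0.0054, and Bin1 and Trim72, for tubule shaping and membrane repair, 0.011 and 0.16. The counter-ion channels Tmem38a and Tmem38b were at -0.021 and -0.11, Stim1 and Orai1 of store-operated entry at -0.033 and 0.13, the kinase Camk2a at -0.19, and the cytosolic buffer Pvalb at -0.079, all on the log2 scale. Of the small regulators, Mrln was at -0.098 and 1810037I17Rik at 0.077. Strit1, which encodes a peptide known to displace the inhibitors, averaged 1.51 FPKM on 8.67 reads and was below the filter on low values, as were Fkbp1b, Ryr3 and Orai2.

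The pump that Pln and Sln regulate exists in a fast form, Atp2a1, and a slow and cardiac form, Atp2a2. Atp2a1 was at 8273 ± 937 FPKM (LD) and 7960 ± 768 FPKM (ADV) (log2 fold change -0.070, edgeR FDR 0.490), and Atp2a2 at 50.7 ± 27.6 and 60.4 ± 30.9 FPKM (log2 fold change 0.23, FDR 0.578). Atp2a2 was like Pln in its spread, with a biological coefficient of variation of 48.1%, and in its slope on the slow fiber score, 0.76 per log2 unit with a standard error of 0.046 (FDR 1.09e-13, edgeR). Of the 46 genes of the list, 5 rose and 6 fell with the score at an FDR under 0.05 in edgeR. Over all genes, 6.05% rose and 2.17% fell at this FDR. The others that rose were Homer2 (slope 0.49), Casq2 (0.45), the slow and cardiac calsequestrin, Trim72 (0.12) and Calu (0.077), and those that fell, by slopes of at most 0.161 in size, included Cacng1, Calm3, Camk2a, Pvalb and Bin1.

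Markers of other cells were examined beside these values. Heart muscle markers, of interest because Pln and Sln are abundant in the heart, were low: of 7 genes, 6 were below the filter, 4 had a mean under 0.1 FPKM, and their summed level was 1.42 to 2.96 FPKM in LD mice and 1.50 to 4.41 FPKM in ADV mice, with Tnnt2 at 1.62 and Myh6 at 0.382 FPKM on average. Of the adipocyte, Schwann cell and leukocyte markers (the most abundant Cfd and Adipoq, Pmp22 and Mbp, Cd68 and Adgre1), 0 had an FDR under 0.05 in edgeR, against 10.8% of all genes. Of 5 smooth muscle genes (Acta2 and Smtn the most abundant) 1 was higher, of 6 denervation genes 1, of 6 immediate early genes 4, and of the 9 fast fiber genes 0. Among all genes, 5.72% were higher and 5.09% lower at this FDR. Of the clock genes, 3 of 5 on the side of Bmal1 and Nfil3 were higher and 7 of 7 on the side of Tef and Nr1d1 lower. The clock gene score, the first side minus the second, ran from -2.163 to 0.803 in LD mice and from -0.778 to 1.413 in ADV mice. When edgeR took this score as a covariate, 0 of all genes had an FDR under 0.05 (1335 of them an unadjusted p under 0.05), 0 of the 10 genes had an unadjusted p under 0.05, and the Trdn log2 fold change was -0.12 (FDR 0.477). The score was built from these same clock genes, and its mean was -0.783 (SD 0.833) in LD mice and 0.685 (SD 0.509) in ADV mice. This fit therefore cannot tell the clock score apart from the group. The standard error of the Trdn value was 0.062 in it, against 0.041 without a covariate. The part of the clock genes in the Trdn difference was not tested further.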

How the data were processed

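Poly(A) RNA of 30 gastrocnemius samples was sequenced in pairs after stranded library preparation. The authors trimmed the reads, aligned them to GRCm39 (mm39) with STAR (2.7.10a per the submitters' processing notes), removed low mapping qualities and counted exon reads with HOMER 4.11 on 57186 transcript rows. The deposited estimated counts hold 0.5 per mate (14.8% of values are not whole), and the deposited FPKM values follow from counts, row length and library size, as recomputed here.

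Counts were rounded. Each symbol kept 1 row (232 had several, of which the longest over 20 reads was taken), and testing was limited to genes whose mean exceeded 20 reads and 0.5 FPKM. Groups came from the labels, in which LD and ADV mice share numbers without a stated link. Replicates are mice. The p-values of the group tests set a difference against the spread between mice, and those of the correlations come from permutation over mice. edgeR 4.0.16 (TMM normalization, robust quasi-likelihood test, Benjamini-Hochberg adjustment) under R 4.3.3 gave the differences, limma 3.58.1 the spread, and scipy 1.17.1 the correlations with 100000 permutations. DESeq2 1.42.0 was an alternative. Called genes passed an FDR of 0.05 with at least a change of 1.3-fold. The fits were tested on simulated data. Closest libraries within a group differed beyond counting noise (chi-square per degree of freedom 10.6 in each group).

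The 10 genes, the pathway list and the marker lists were chosen with earlier results of these data known. Named were the 10 genes, pathway genes called or among the 2 highest by FPKM in a role, the 2 highest of each marker list, and for Sln and Pln the 5 most and 3 least similar genes, besides the highest and lowest junction pair. Some genes that this rule names are not reported here. Csrp3, Myh7, Ehd1, Homer2, Casq2, Calu, Strit1, Fkbp1b, Ryr3, Orai2, Gm47644, Cep85l and further junction pairs were named after their values were seen. The alternatives covered normalization, filters, tool, pseudocount, covariates, GC content and libraries left out. The slope on the slow fiber score, the exon share covariate, the fits without ADV mouse 24, ADV mouse 34 or LD mice 23 and 33, and the junction pairs within groups were added after the data were seen.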

Additional observations from a re-analysis of the deposited data

How the results depend on the processing

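Ryr1, Jph1, Jph2, Jsrp1, Sypl2, Srl and Pln kept the sign of their log2 fold change in each of the 30 fits that left out 1 library, and Trdn also kept an FDR under 0.05 in all of them. The values of Stac3 then ran from -0.0356 to 0.0135 and those of Sln from -0.149 to 0.258. The number of genes called, 243, was 120 with limma on log2(FPKM + 1), 22 with the exon share of the library as a covariate, 109 with the slow fiber score, 0 with the clock score (edgeR) and 153 with the GC trend removed. Of the 10 genes, 0 had an FDR under 0.05 without the filter (1.77% of all genes had), with the clock score (0.0%) or with the exon share (0.349%). In DESeq2 2 of the 10 had (Trdn and Srl), as had 13.9% of all genes. With the slow fiber score 1 had (3.16% of all genes), and it was Pln, which was also the 1 called. With the GC trend removed 1 had (4.85% of all genes), and it was Jph2.

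Over the 14 pairs of mice that share a label number, the correlation of deviations ran from -0.261 to 0.431 (median 0.0113). Of these 14, 3 matched their own number best. What unrelated numbers would give was not computed, so these values do not decide whether the numbers pair the mice. With the replicate block on the 28 libraries that share numbers, 124 genes were called. There, 0 of the 10 genes and 4.01% of all genes had an FDR under 0.05. In the same libraries without the block, 147 genes were called, and 0 of the 10 and 5.0% of all genes had such an FDR. With the block, Sln was at -0.068 and Trdn at -0.123 (FDR 0.0851).

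Log2 fold changes that changed sign were Ryr1 (0.078) and Jsrp1 (-0.020) with the exon share, Jph2 (0.027) with the slow fiber score, Trdn (0.014) with the GC trend removed, Sln with pseudocounts of 0.1 (-0.077) and 1 (-0.014) and with the slow fiber score (-0.043), and Stac3 with library size alone (0.0094), without the filter (0.00085), with pseudocounts of 0.1 (0.0113) and 1 (0.0112), in the 28 libraries (0.00036), with the clock score (0.031) and with the slow fiber score (0.025). Each of these had an FDR over 0.05, and the cause was not tested.

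The number of genes that differed in spread, 1, was 4 around the group mean and 0 to 3 with 1 library left out. With all libraries, 3 of the 10 genes and 8.22% of all genes had a slope on the slow fiber score with an FDR under 0.05. The number of the 10 genes was 1 without ADV mouse 24, 1 without LD mice 23 and 33, and 1 to 4 with 1 library left out. The share of all genes was not recorded for those fits. Correlations that lost their call were Sln with the denervation score (0.522 in LD mice, 0.584 in ADV mice, 0.328 without the farthest mice) and, in ADV mice, Pln with the slow (0.571) and fast (-0.295) fiber scores. In LD mice, Pln with the slow and fast fiber scores also lost it without the 2 farthest mice (0.729 and -0.711, adjusted permutation p = 0.0584 for each). Correlations that changed sign without a call were Sln with Pln (-0.0802) and with the slow fiber score (-0.0942) in ADV mice, Sln with the clock score (-0.0447 in LD mice, -0.14 without the farthest), Sln with the library total (0.105 in LD mice, 0.0675 without ADV mouse 24), Pln with the clock score (0.141 in LD mice, 0.0402 without the farthest), and Ryr1 with Stac3 (0.488 in LD mice, 0.151 without ADV mouse 34). The low counts of Sln and Pln, 7 to 163.5 reads per library, limit the precision of their single values.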
